A study of Drosophila melanogaster with 2 samples.

Results

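The 9 genes described here encode nuclear factors and corepressors of the Notch pathway in Drosophila melanogaster, and the data give the sites near them at which a GFP-tagged E(spl)m3-HLH protein was recovered from embryo chromatin. The genes were listed by name, as gro, Su(H), H, mam, CtBP, Sin3A, Smr, Bx42 and Nle, and are 9 of the 13945 annotated protein-coding genes. Every peak summit, the point of highest signal in a peak, inside a gene or within 5 kb of either end was assigned to it. The study was 1 chromatin immunoprecipitation sequencing (ChIP-seq) experiment with 1 group of 2 biological replicates, numbered 2 and 3, each with 1 technical replicate. The embryos were 0 to 24 h old whole organisms of both sexes from the strain E(spl)m3-HLH-GFP, a line that stably carries a transgene for E(spl)m3-HLH with GFP at its C terminus. The description names an anti-GFP antibody and the antibody field names E(spl)m3-HLH, and sonicated fragments measured 200 to 800 bp. Control libraries were not analysed here, and each sample mixed embryos of all these ages and all cell types, so a peak cannot be placed in any stage or cell type.

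Su(H) is the DNA-binding protein of the pathway. When Notch is cleaved, its intracellular domain joins Su(H) and the coactivator Mastermind, and target genes, among them those of the E(spl) complex, are switched on; without the signal, Hairless (H) binds Su(H) and brings the corepressors Groucho (gro) and CtBP. The E(spl) bHLH proteins, E(spl)m3-HLH included, are themselves repressors that act largely through Groucho, which binds a short motif at their C-terminal end.

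The deposited lists gave a signal for each peak, the authors' own value from their peak caller, whose scale was set within each list. Ranks run from 1 for the strongest peak of a list. The thresholded list, made by the irreproducible discovery rate (IDR) procedure from both replicates, held 5701 peaks with signals of 108 to 3847, the pooled list 25791, the list of replicate 2 30000 and that of replicate 3 24781. No read counts were given, so depth is unknown and no value carries a counting error. With 2 replicates and members listed with earlier results of these data known, counts are set beside all protein-coding genes as a description, with no test. The full windows held 30 thresholded, 81 pooled, 97 replicate 2 and 73 replicate 3 summits.

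Of the 9 members, 7 (gro, mam, CtBP, Sin3A, Smr, Bx42 and Nle) had a thresholded summit in the window, against 54.4% of all protein-coding genes. The DNA-binding factor Su(H) and its antagonist H had none. The median was 2 summits per member, against 1 per protein-coding gene, and mam and Smr together held 18 of the 30. The 9 windows covered 273 kb, with 1.1 thresholded summits per 10 kb, against 0.426 per 10 kb over the 6 chromosome arms. The arms include sequence away from genes, so these 2 densities are not over like sequence. Over protein-coding genes the median window was 12.2 kb and the median count was 1 summit. In strength the 30 summits lay in the middle of the list: their median signal was 193, the same as the 193 of all thresholded peaks, and their median rank was 2855. Of the 30, 15 were among the strongest 2850 peaks of the list and 6 ranked at 1000 or better, those 6 at gro, mam, Sin3A and Smr.

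**Figure D1:**
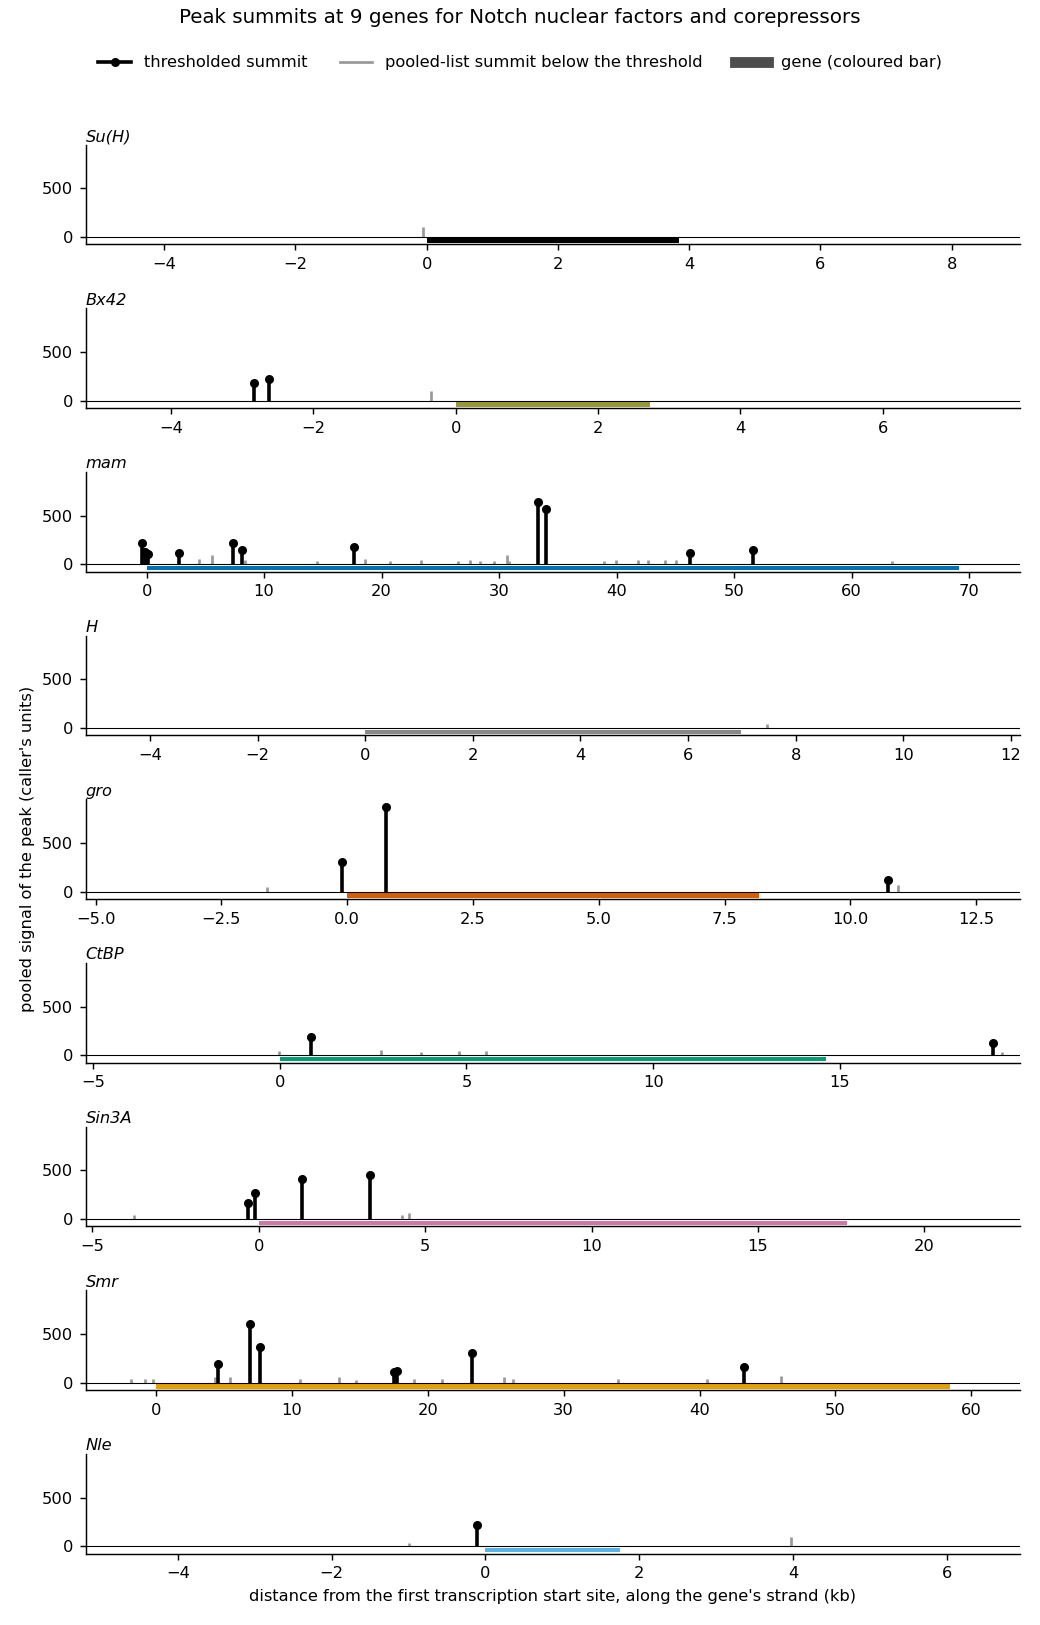
Peak summits along the 9 genes, with distance from the first transcription start site in kb on each horizontal axis, along the strand of the gene, and pooled signal in the caller's units on each vertical axis. Black stems with dots are thresholded summits, grey stems are pooled-list summits below the threshold, and the coloured bar is the gene. gro carries the strongest summit at 869, mam and Smr carry 11 and 7 summits, and Su(H) and H carry none above the threshold.

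The sequence at the members' summits is shown for the 2 gro sites near its start sites, the CtBP intron site, the strongest pair of Smr sites, the shared Nle and Sf3b1 promoter and the Su(H) promoter site just below the threshold, since the results turn on these. Each is the 101 bp centred on a summit, 5′ to 3′ on the plus strand of dm6 (RefSeq Release 6), and capitals mark each match to the E-box CANNTG or the N-box CACNAG on either strand.
gro, chr3R:26041589-26041689: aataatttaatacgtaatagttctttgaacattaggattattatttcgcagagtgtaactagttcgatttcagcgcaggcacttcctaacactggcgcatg
gro, chr3R:26042459-26042559: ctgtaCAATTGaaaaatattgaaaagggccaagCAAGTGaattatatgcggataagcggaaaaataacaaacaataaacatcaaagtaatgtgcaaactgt
CtBP, chr3R:13012423-13012523: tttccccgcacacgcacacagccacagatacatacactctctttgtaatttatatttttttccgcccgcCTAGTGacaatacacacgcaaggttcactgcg
Smr, chrX:12734928-12735028: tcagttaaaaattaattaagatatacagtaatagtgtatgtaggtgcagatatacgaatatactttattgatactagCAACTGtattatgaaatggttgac
Smr, chrX:12735658-12735758: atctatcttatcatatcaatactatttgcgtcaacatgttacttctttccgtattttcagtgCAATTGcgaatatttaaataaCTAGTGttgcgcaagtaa
Nle, chr2L:568181-568281: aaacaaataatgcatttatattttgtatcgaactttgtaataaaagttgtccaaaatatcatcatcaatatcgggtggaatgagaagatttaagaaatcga
Su(H), chr2L:15039386-15039486: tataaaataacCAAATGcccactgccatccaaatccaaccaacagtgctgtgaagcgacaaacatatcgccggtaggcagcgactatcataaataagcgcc
The strongest gro window holds 2 E-box matches, the stronger Smr window an E-box and an N-box match, and the CtBP window an N-box match. The first gro window and the Nle window hold neither. These are letter matches, not sites of binding.

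Among the activating factors, Su(H) (FBgn0004837, 2L 15039488-15043334, plus strand, 3847 bp) had 1 summit in each of the pooled and replicate lists and none in the thresholded list. The pooled peak, 15039228-15039643, had its summit 52 bp upstream of the start site of Su(H), on the side of the divergent gene CIAPIN1, whose start site is 627 bp from that of Su(H). Its signal was 108 at rank 5718, which is 17 places below the end of the thresholded list. In replicate 2 it ranked 5076 with a signal of 75.4, and in replicate 3 it ranked 6867 with a signal of 35.5. The Su(H) promoter peak was thus present in both replicates at nearly the same position, and lay above the depth of 5701 peaks in replicate 2 alone. The nearest thresholded summit was 13582 bp from the gene.

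Bx42 (FBgn0004856, X 9103870-9106604, minus strand, 2735 bp) encodes the fly relative of vertebrate SKIP, a splicing factor and coactivator of Su(H)-type complexes. It had 2 thresholded summits, and both lay in an intron of the neighbouring gene AP-1gamma, 2622 and 2827 bp upstream of Bx42. They were 324 and 119 bp upstream of a start site of AP-1gamma, and so stood much nearer to that gene. The first, at 9109018-9109433, had a pooled signal of 224 at rank 2323 and ranked 2448 in replicate 2. The second, at 9109223-9109638, had a pooled signal of 183 at rank 3047 and ranked 4497 in replicate 2. Replicate 3 held a single summit there, rank 2013, 25 bp from the second and 180 bp from the first. At Bx42 itself replicate 2 had a summit 133 bp upstream of the start site with a signal of 91.4 at rank 4047, and another 339 bp upstream at rank 5356. The pooled list had the one 339 bp upstream, 126 bp from the start site of Arfrp1, with a signal of 103 at rank 6032. Replicate 3 had no summit near the Bx42 start site, the closest being 2463 bp away from that pooled summit, so the Bx42 promoter summit was seen in 1 of 2 replicates.

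The gene mam (FBgn0002643, 2R 13991203-14060356, plus strand, 69154 bp) encodes Mastermind, and had 11 thresholded summits, the most of any member. A count of 11 or more was found for 20 of all protein-coding genes, 0.143%, and for 3.47% of the 461 genes with windows over 50 kb. The strongest pair lay deep in an intron, 33333 and 33999 bp from the first start site and 666 bp apart. The nearest mam start site was a later one, with the pair 7127 and 6461 bp upstream of it. The first of these, at 14024396-14024726, had a pooled signal of 645 at rank 333, and ranked 353 in replicate 2 and 284 in replicate 3. The second, at 14024959-14025327, had a signal of 569 at rank 434, and ranked 464 in replicate 2 and 379 in replicate 3. The pair thus held like ranks in both replicates, and the nearest protein-coding start site, that of the nested gene CG18371, was 4084 and 3418 bp away.

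At the mam promoter 3 thresholded summits stood side by side with overlapping intervals, 399 and 178 bp upstream and 143 bp downstream of the first start site. They had pooled signals of 219, 131 and 109, at ranks 2393, 4579 and 5677. The strongest of them lay 97 bp upstream of the divergent gene RN-tre, whose start site is 496 bp from that of mam, and ranked 2091 in replicate 2 and 2667 in replicate 3. The other two ranked lower in replicate 3. There the middle one had rank 13127, and it had rank 3730 in replicate 2, while the 5′ UTR one had rank 6909 in replicate 3 and 4988 in replicate 2. The middle summit was the one with the worst replicate 3 rank of all 30.

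The remaining 6 mam summits were intronic. One, at 14008634-14009049, stood 357 bp upstream of the second mam start site with a pooled signal of 181 at rank 3086, 2894 in replicate 2 and 3499 in replicate 3. Those 7322 and 8159 bp into the gene had signals of 217 and 150.3 at pooled ranks 2422 and 3884. The first of them ranked 3622 in replicate 2 and 1708 in replicate 3, and the other 4149 in replicate 2 and 3930 in replicate 3, so the first stood higher in replicate 3 and the other about level. The last 3, at 2716, 46220 and 51572 bp from the first start site, had signals of 112, 116 and 148 at ranks 5439, 5249 and 3932. Of these, the one at 2716 bp ranked 7137 in replicate 2, the worst replicate 2 rank of all 30, and 4369 in replicate 3. The one at 46220 bp ranked 5585 in replicate 2 and 5697 in replicate 3, and the one at 51572 bp ranked 5024 in replicate 2 and 3158 in replicate 3. The mam window also held 20 pooled summits below the threshold.

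H (FBgn0001169, 3R 20621938-20628915, plus strand, 6978 bp) encodes Hairless, the adaptor that turns Su(H) into a repressor, and was the member with the least signal. Its window had 1 pooled summit, 493 bp past the end of the gene, in an annotated 3′ UTR, with a signal of 46.2 at rank 14526. That summit ranked 21284 in replicate 2 and 11794 in replicate 3. Replicate 2 held 1 more, at rank 28258. No list had a summit within 500 bp of the H start site, which was true of no other member. The nearest thresholded peak, 20633983-20634398, had its summit 5276 bp downstream of H, just outside the window, with a signal of 286 at rank 1582. It was 541 bp from a start site of Pi3K92E.

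Among the corepressors, gro (FBgn0001139, 3R 26041736-26049911, plus strand, 8176 bp) encodes Groucho, the corepressor that the E(spl) proteins recruit. It adjoins the E(spl) complex, with 727 bp between the end of E(spl)m8-HLH and the start of gro. It carried the strongest summit of the 9 genes, at 26042347-26042663, in an intron 773 bp into the gene and 132 bp upstream of another annotated gro start site. This summit had a signal of 869 at rank 156 in the pooled list, 523 at rank 168 in replicate 2 and 343 at rank 158 in replicate 3. Its rank was thus nearly the same in all lists, and 484 protein-coding genes, 3.47%, had a summit as strong in their window. A second summit, in 26041431-26041846, was 97 bp upstream of the first gro start site and 870 bp from the strongest. It had a signal of 303 at rank 1452, with rank 1424 in replicate 2 and 1719 in replicate 3.

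The third gro-window summit, in 26052277-26052692, lay past the gene, 228 bp upstream of Exo84, with a signal of 118 at rank 5127. It ranked 4339 in replicate 2, and the nearest replicate 3 summit, rank 5797, was 115 bp away. The pooled list also held a summit between this one and Vps2, 136 bp upstream of that gene, at rank 8793, so the 2 pooled summits shared their nearest replicate summits. At the other end, the window took in a weak pooled summit 97 bp upstream of E(spl)m8-HLH, with a signal of 45.8 at rank 14740.

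CtBP (FBgn0020496, 3R 13011649-13026275, plus strand, 14627 bp) encodes a corepressor that binds NAD(H) and is brought to DNA by H and other repressors. Its 2 thresholded summits were among the weaker ones. The first, 13012265-13012680, lay in an intron 824 bp into the gene, with a pooled signal of 191 at rank 2904, 3224 in replicate 2 and 2747 in replicate 3. A summit at least as strong was found for 37.7% of protein-coding genes. The second, 13030547-13030962, was past the gene, 96 bp upstream of CG46280, with a signal of 128 at rank 4702, 6235 in replicate 2 and 4575 in replicate 3. At the start sites of CtBP itself the pooled list had weak summits, 29 bp upstream of the first with a signal of 42.3 and 10 bp downstream of another with 45.7, at ranks 16437 and 14783. Replicate 2 held both, at ranks 16620 and 12036, and replicate 3 had no summit within 500 bp of either.

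Sin3A (FBgn0022764, 2R 12575240-12592917, minus strand, 17678 bp) encodes the scaffold of a histone deacetylase complex. Its 4 thresholded summits all fell within the first 4 kb of the gene or just upstream, and 17.5% of the 898 genes with windows of 25 to 50 kb had as many. The strongest, 12589469-12589714, had a pooled signal of 455 at rank 696, and ranked 683 in replicate 2 and 727 in replicate 3. It was 422 bp upstream of the second Sin3A start site, in an exon of lncRNA:CR30055, a non-coding gene within Sin3A. The next, 12591523-12591761, lay in an intron 1303 bp into the gene, with a signal of 416 at rank 841, 766 in replicate 2 and 1055 in replicate 3. At the first start site 2 overlapping peaks had summits 114 and 315 bp upstream, with signals of 270.1 and 162 at ranks 1732 and 3546. The nearer ranked alike in both replicates, 1882 in replicate 2 and 1767 in replicate 3, while the farther ranked 3529 in replicate 2 and 5441 in replicate 3.

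Smr (FBgn0265523, X 12684203-12742618, minus strand, 58416 bp) encodes SMRTER, a relative of the vertebrate corepressors SMRT and N-CoR. All 7 of its thresholded summits were intronic, and none lay within 500 bp of a Smr start site. As many were found for 12.4% of the genes with windows over 50 kb. The strongest, 12735624-12735922, was 6362 bp from the nearest Smr start site, with a pooled signal of 609.7 at rank 380, 364 in replicate 2 and 340 in replicate 3. Replicate 3 split this peak: the summit at rank 340 lay 99 bp to one side, just inside the distance of 100 bp that counts as shared, and another at rank 1086 lay 111 bp to the other side. A second thresholded summit 730 bp away, 12734880-12735203, had a signal of 372 at rank 1033, 725 in replicate 2 and 1483 in replicate 3. Smr thus had, like mam, a pair of strong intronic summits under 1 kb apart and several kb from the nearest start site of the gene itself.

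The other Smr summits were spread over the long introns. The summit 22706 bp from the nearest Smr start site had a signal of 309 at rank 1414, 1765 in replicate 2 and 1115 in replicate 3. Those 3981 and 42755 bp away had signals of 196 and 160.3 at ranks 2806 and 3612. The nearer ranked 2679 in replicate 2 and 3164 in replicate 3, and the farther 4132 in replicate 2 and 3319 in replicate 3, all within the strongest 5701 peaks. The last 2, 224 bp apart at 17217 and 16993 bp, had signals of 122 and 114 at ranks 4932 and 5322, and overlapping intervals. Replicate 3 had a single summit between them, at rank 6048, 123 and 101 bp away. Near the Smr start sites the pooled list had only weak summits, one of them 217 bp upstream with a signal of 34.6 at rank 21972.

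Nle (FBgn0021874, 2L 566366-568121, minus strand, 1756 bp) encodes Notchless, a WD-repeat protein that modifies Notch activity and whose yeast relative acts in ribosome assembly. Its single thresholded peak, 568023-568438, had its summit 110 bp upstream of Nle and 109 bp upstream of the divergent Sf3b1, whose start site is 219 bp from that of Nle. The pooled signal was 223 at rank 2327, with rank 2200 in replicate 2 and 2680 in replicate 3. The summit is at the same distance from both genes within 1 bp, so it cannot be given to either. A weaker pooled summit, 13 bp upstream of CG2794 at the other end of the window, had a signal of 96.0 at rank 6521. A summit as strong as that at the Nle promoter was found for 32.6% of protein-coding genes.

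**Figure D2:**
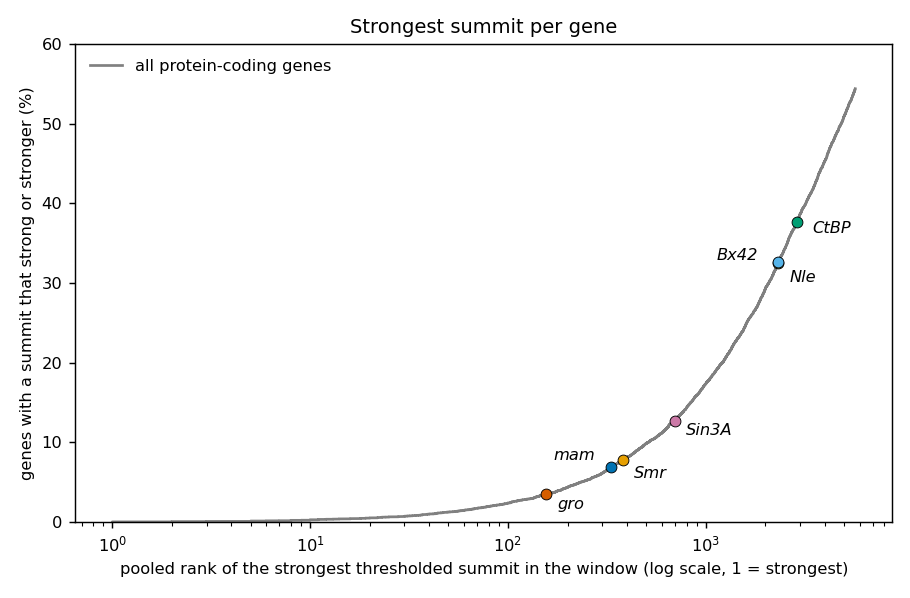
Pooled rank of the strongest thresholded summit in the window of a gene (horizontal axis, log scale) against the percentage of protein-coding genes with a summit that strong or stronger (vertical axis). Points are the 7 members with a thresholded summit and the line is all protein-coding genes: gro is at 3.47%, mam at 6.91%, Smr at 7.85%, Sin3A at 12.7%, and Bx42, Nle and CtBP lie between 32.5% and 37.7%. The percentages are not matched for window length: the windows of mam and Smr were 79.2 and 68.4 kb, against a median of 12.2 kb over all genes.

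Members with long windows had more room for summits, so each was read beside genes of like window length. Nle had a summit, against 44.6% of genes with windows up to 12 kb. Of the 2 members from 12 to 15 kb, Bx42 had one and Su(H) had none, against 58.3% of such genes. From 15 to 25 kb gro and CtBP had one and H had none, against 65.7%. Sin3A had one, against 72.3% of genes from 25 to 50 kb, and mam and Smr had one each or more, against 71.8% of genes over 50 kb. In every length class a thresholded summit was thus common, and the members' presence of one is close to what genes of their length show. As many summits as at mam were found for 3.47% of the genes in its length class, as at Smr for 12.4%, gro 17.3%, Sin3A 17.5%, Bx42 27.1%, CtBP 36.2% and Nle 44.6%.

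**Figure D3:**
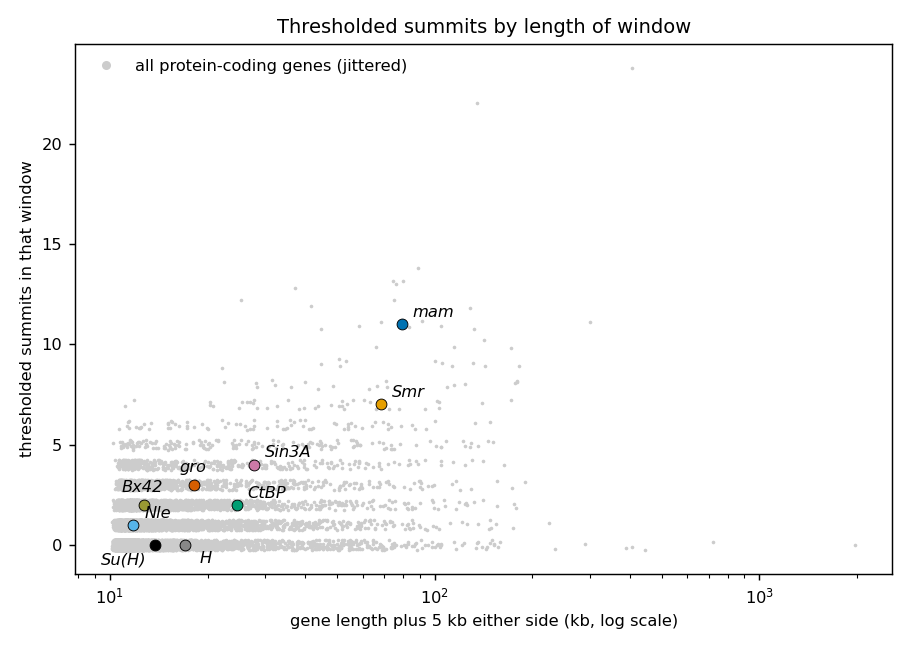
Window length (gene plus 5 kb either side, kb, log scale) against the number of thresholded summits in the window. Coloured points are the 9 members and grey points, jittered vertically, are all protein-coding genes: mam with 11 and Smr with 7 summits lie toward the top of the long genes, and Su(H) and H lie at 0.

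A promoter summit, within 500 bp of a start site of the gene itself, was present in the thresholded list for 4 of 9 members (gro, mam, Sin3A and Nle), against 23.2% of protein-coding genes. In the pooled list it was present for 8 of 9, all but H, against 48.1%, and every member had some pooled summit in its window, against 86.9%. The promoter shares are not matched for start sites per gene, of which gro had 4, mam, CtBP and Smr 3 each, and Sin3A 2. The Nle promoter summit also lay 109 bp upstream of Sf3b1. Of the 30 summits, 14 (46.7%) lay within 500 bp of any annotated start site, against 47.5% of all thresholded summits. Among protein-coding start sites alone, the one nearest to the summit was that of the member for 20 of 30. By annotation 20 of the 30 were in introns, 7 were intergenic, 2 were in non-coding exons and 1 was in a 5′ UTR. Inside the members themselves lay 20, at gro, mam, CtBP, Sin3A and Smr.

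Neighbouring peaks were close together at these genes. Of the 30 intervals, 9 (30%) overlapped another thresholded peak, against 9.91% of all thresholded peaks, at mam, Sin3A, Smr and Bx42. Each of the 9 intervals was 416 bp wide, and overlapping neighbours had summits 201 to 321 bp apart. Whether overlapping peaks are separate sites was not tested. Merging overlapping intervals left 25 of the 30. The 9 came from 4 genes and are not independent of each other.

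The thresholded list was made from both replicates by the IDR procedure, so a close match in each is largely built in. The matches and like ranks are therefore not separate evidence for these peaks. All 30 summits had a replicate 2 summit within 100 bp, against 98.6% of all thresholded summits, at a median distance of 5.5 bp. In replicate 3, 26 of 30 (86.7%) did, against 97.2%, at a median distance of 13.5 bp. The 4 without one were the summit near Exo84, 2 of the Smr summits and 1 of the pair upstream of Bx42, and each had a replicate 3 summit 101 to 180 bp away. Of the 4, 3 belonged to pairs of overlapping peaks for which replicate 3 gave a single summit. Within the 5701 strongest peaks of both replicates, 22 of 30 had a match. The rank was better in replicate 2 for 15 and in replicate 3 for 15. The 6 summits at pooled rank 1000 or better ranked between 168 and 766 in replicate 2 and between 158 and 1055 in replicate 3. Over all 30, the widest gap in rank was at the middle summit of the mam promoter.

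**Figure D4:**
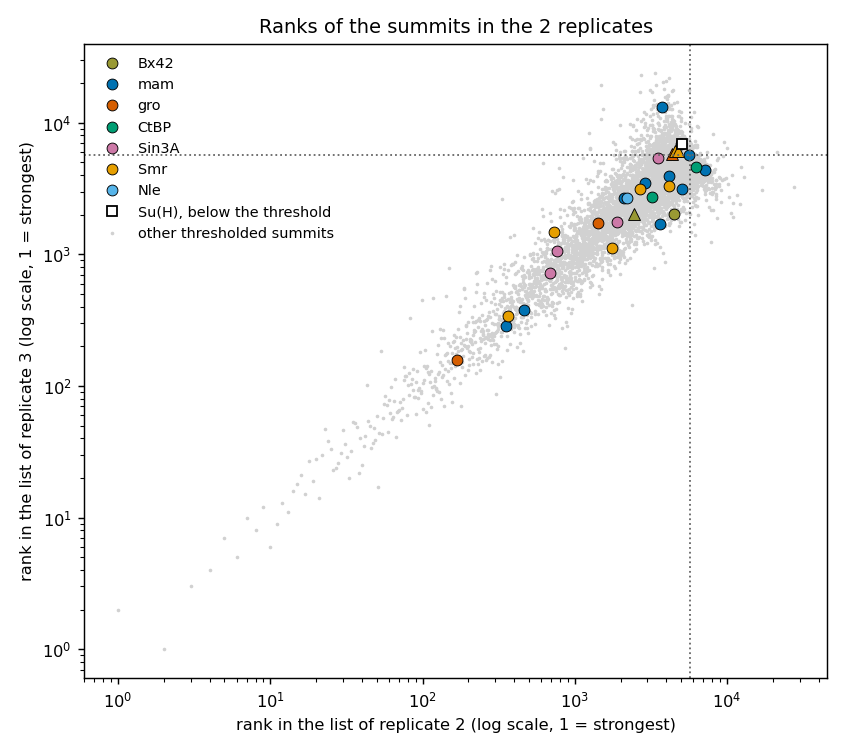
Rank in the list of replicate 2 against rank in the list of replicate 3 (both log scale, 1 is the strongest) of the nearest summit to each thresholded summit. Coloured points are member summits, triangles are the 4 whose replicate 3 summit was over 100 bp away, the open square is the Su(H) peak below the threshold, small grey points are other thresholded summits and dotted lines mark rank 5701. The strongest gro summit sits at 168 and 158, and the mam promoter summit at 3730 and 13127 has the worst replicate 3 rank of the 30 member summits, while some other thresholded summits have worse ones.

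How many members had a summit followed the flank and the list used. Inside the gene alone 5 of 9 did (gro, mam, CtBP, Sin3A and Smr), against 13.1% of protein-coding genes. These 5 were the longest members, of 8176 bp or more, and the others were of 6978 bp or less. The 13.1% is over genes of all lengths, so it is not matched to the members for length. With a 2 kb flank 6 of 9 did, against 40.3%, and Bx42 was the one lost. With a 10 kb flank 8 of 9 did, against 68.7%, and H was the one gained. With the 5701 strongest peaks of replicate 2 alone it was 8 of 9, against 55%, with Su(H) gained. With those of replicate 3 alone it was 7 of 9, against 52.9%. With the strongest 2850 peaks of the thresholded list it was 6 of 9, against 37.3%, and CtBP had none.

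In the 101 bp at each summit the E-box CACGTG and the sequence CACGCG, both bound by Hairy-related repressors, were searched on both strands. None of the 30 member windows held either, against 1.84% of all 5701 windows, so 0 of 30 is near the background. The looser E-box CANNTG, which includes CACGTG, was in 13 of 30 (43.3%), against 35.3%. It was found in 5 Smr, 3 mam, 3 Sin3A, 1 gro and 1 Bx42 windows. The N-box CACNAG was in 3 of 30 (10%), against 9.7%, at 2 Smr windows and 1 CtBP window. The Su(H) core TGGGAA was in 1 (3.33%), against 5.35%, in the window of the strongest Sin3A summit. GAGAG, bound by GAGA factor, was in 3 (10%), against 8.58%. The DREF sequence TATCGATA and the M1BP sequence GGTCACACT were in none of the 30, against 1.67% and 0.544%. The windows were rich in A and T: the median share of G and C was 29.7% over the 30, with a range of 18.8% to 46.5%, against 32.7% over all thresholded windows and 42.2% over the 6 arms.

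Other genes of the pathway were counted in the same way. Of 15 further nuclear cofactors of Notch, 13 (86.7%) had a thresholded summit in the window and 8 (53.3%) at a promoter, with kto and Cdk8 having none. The strongest promoter summits among them were those of brm, the ATPase of the Brahma remodelling complex, with a signal of 1099.7 at rank 99, and of ebi, a WD-repeat corepressor, with 422 at rank 816. Of 17 genes for the receptor, its ligands, processing and trafficking, 13 (76.5%) had a summit in the window and 6 (35.3%) at a promoter, and Delta, Ser, Psn and Su(dx) had none. The strongest promoter summits were those of numb, a Notch inhibitor, and aph-1, a subunit of gamma-secretase, with signals of 777 and 612 at ranks 214 and 377. Of 12 Hairy-related repressor genes, 8 (66.7%) had one in the window and 5 (41.7%) at a promoter, and E(spl)m5-HLH, dpn, Hey and Hesr had none. The strongest promoter summits among them were those of E(spl)m3-HLH itself, at rank 87, and E(spl)m7-HLH, at rank 881 with a signal of 407. The same shares were 77.8% in the window and 44.4% at a promoter for the 9 members, and 54.4% and 23.2% for all protein-coding genes. The shares of these lists are not matched for window length or for start sites per gene. The window of E(spl)m8-HLH, a listed repressor gene, takes in the gro summits near the gro start sites. The count for that list is thus not separate from that of the members.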

How the data were processed

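Peak lists on dm6 from 2 replicates of one ChIP-seq group were used. Per the labels and the file listing, the authors called peaks on each replicate and on both together with a control, and made a thresholded list with the IDR procedure. The aligner and the peak caller, with their versions: not given in the sources used here. For every peak the deposited lists give a signal, an enrichment value of the authors' caller with a scale set in that list, and it served for ranks and description inside that list alone. The dm3 lists were left out.

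Summits were written 1-based and joined with Ensembl release 115 genes on 6 arms, giving 13945 protein-coding genes. The rank of a peak is its place by signal. A summit counted as shared within 100 bp and as a promoter summit within 500 bp of a start site of the gene. Peaks and genes that share a summit are not replicates, and no test was run. The members and lists were chosen with earlier results of these data known. All 9 members were named with every thresholded summit in their windows, and members without one with their strongest pooled summit. Further summits below the threshold at the start sites of members, and the peak beyond the window of H, were chosen after their values were seen. From each gene list the 2 with the strongest promoter summit, and those without a summit, were named. Scripts used Python 3.11.15, numpy 2.4.6, pandas 2.3.3 and matplotlib 3.10.9, and the counting was tested on simulated peaks. Alternatives changed the flank, list, distance, promoter reach and motif window.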

Additional observations from a re-analysis of the deposited data

How the results depend on the processing

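The number of members with a thresholded summit, 7 of 9, ranged from 5 to 8 over the flanks and lists tried, and the 30 summits became 20 to 40 with other flanks. With each replicate left out in turn, the number of members was 7 to 8, their summits 26 to 32 and the members with a promoter summit 4 to 6. The setting that moved the count of summits most was a stricter threshold, the strongest 2850 of the thresholded peaks, with 15 in place of 30. A window of 100 bp each side of the summit gave 1 member window with CACGTG or CACGCG in place of 0. Of the 27 alternatives run, the other 25 stayed within 1.5 times the value reported. Promoter members were 5 within 1 kb, 4 within 250 bp and 4 under the stricter threshold. Matches in replicate 3 were 23 within 50 bp and 30 within 200 bp, in place of 26. Depth is unknown, so the absence of a peak at the H start site in all lists cannot be set against a detection limit. The same holds for its absence at the Bx42 promoter in replicate 3. No paired analysis was possible because there is 1 group and no test between groups.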
